A study of Mus musculus with 31 samples.

Results

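Expression and translation of 8 genes of cholesterol supply were measured in mouse skin squamous cell carcinoma (SCC) cells with and without a working integrated stress response (ISR). The genes were chosen by name, as enzymes, a regulator pair and a receptor of the pathway: Hmgcs1, Idi1, Fdps, Fdft1 and Sqle, then Srebf2 and Insig1, then Vldlr. Earlier results of these data were known at that choice, so shares and medians of the 8 genes beside those of all genes are descriptions. They are 8 of the 20704 genes in the table of ribosome-protected fragments (RPFs) and 8 of the 24593 genes in the table of total RNA. All 8 passed the filter on low counts in both tables. The cells derive from an SCC line that expresses HrasG12V, with TgfbrII alleles that the labels give as floxed (fl/fl) and the study's list of cell lines as deleted. Cells of all groups lost their own Eif2s1, the gene of eIF2α, to CRISPR and instead express a myc-tagged lentiviral copy under the PGK promoter. S51 cells carry the wild-type copy and are ISR-competent, whereas S51A cells carry an alanine at the phosphorylated serine and are ISR-null. Each genotype was represented by a small number of clones grown from single cells, and the clone behind each library was not given in the sources used here, so that genotype and clone cannot be told apart. Cells received vehicle (DMSO) or 100 nM bortezomib, an inhibitor of the proteasome, for 4.5 h by the labels, while the study's text gives a slightly shorter time. There were 3 RPF libraries from S51 vehicle, 4 from every other group, and for total RNA 4 libraries a group.

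Cholesterol is built from acetyl-CoA through the mevalonate pathway. Hmgcs1 makes HMG-CoA, Idi1 and Fdps build the isoprenoid chain up to farnesyl pyrophosphate, Fdft1 joins farnesyl units into squalene, and Sqle oxidizes squalene before the sterol rings are closed. Srebf2 encodes SREBP2, a membrane-bound transcription factor that is cleaved and enters the nucleus when sterols are low, where it raises transcription of these enzymes and of Insig1. Insig1 encodes an anchor that holds SREBP2 in the endoplasmic reticulum when sterols are plentiful. Vldlr encodes a cell surface receptor that takes up triglyceride-rich lipoproteins, and it has been described elsewhere as a target of stress signalling through eIF2α and ATF4. In skin, keratinocytes make much of their own cholesterol for membranes and for the barrier lipids.

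On the mouse assembly GRCm38.p6, of the mm10 build that the authors used, Hmgcs1 (Entrez gene 208715) lies at chr13:119690351-119708260 on the plus strand and Idi1 (319554) at chr13:8885606-8892396 on the plus strand. Fdps (110196) lies at chr3:89093588-89101967 and Fdft1 (14137) at chr14:63145150-63181687, both on the minus strand. Sqle (20775) lies at chr15:59315092-59331193 and Srebf2 (20788) at chr15:82147269-82205379, both on the plus strand. Insig1 (231070) lies at chr5:28071412-28078662 and Vldlr (22359) at chr19:27216480-27254231, both on the plus strand. Insig1 and Vldlr are each overlapped by an antisense long noncoding RNA (Gm35223 and Gm35438). Fdft1 shares 774 bases with Ctsb on the other strand. The use of strand in counting was not stated, so reads of these overlapping genes cannot be told apart.

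Promoter sequence from RefSeq on GRCm38.p6 was at hand for 5 of the 8 genes, as 250 bases before and 50 after each transcription start, and none is printed for Fdps, Fdft1 and Sqle. Windows of 30 bases are shown around matches to letters known from sterol response elements, CCAAT boxes and composite C/EBP and ATF sites. All are written 5′ to 3′ on the plus strand, and capitals mark the match. The first pair holds TCACNCCA, letters known from sterol response elements, 133 bases before the start of Hmgcs1 (chr13:119690203-119690232) and 158 bases before that of Srebf2 (chr15:82147096-82147125).
Hmgcs1: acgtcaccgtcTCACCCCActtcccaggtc
Srebf2: atgacgcaccaTCACCCCAtgagccgcttc
The next 4 hold CCAAT read from the other strand, so that the capitals spell ATTGG, at chr13:119690293-119690322 in Hmgcs1, chr13:8885579-8885608 in Idi1, chr5:28071183-28071212 in Insig1 and chr15:82147121-82147150 in Srebf2.
Hmgcs1: gtccccgcctctcATTGGctgaaagcggat
Idi1: ggtccaaggtgccATTGGctggcgaccgac
Insig1: ccgccctcctcccATTGGctccggcggcct
Srebf2: gcttcgcgcgccgATTGGctaatgcaagcc
The last pair holds TGATGNAA, a pattern known from composite sites of C/EBP and ATF proteins, read from the other strand. It lies 196 bases before a start of Vldlr (chr19:27216809-27216838) and 177 bases before that of Idi1 (chr13:8885414-8885443).
Vldlr: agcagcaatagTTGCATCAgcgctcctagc
Idi1: attttcttaatTTCCATCAagaccaaccca

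Both strands were searched, the patterns do not contain one another, and they were chosen after the sequences had been seen. Among all 32851 promoter windows of 300 bases, TCACNCCA occurred in 4.36% and TGATGNAA in 3.97%, while each occurred in 2 of the 5 genes. CCAAT occurred in all 5 genes and in 37.4% of all windows, with 4 matches in Hmgcs1 and 2 in Idi1. GGGCGG, the letters of an Sp1 box, occurred in all 5 and in 35.7% of all windows. All matches of Vldlr lay in its window at chr19:27216770-27217069, and its other window, at chr19:27216234-27216533, held none of these patterns. These matches describe letters and were not tested for binding.

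Library totals on genes ran from 1038826 to 4902237 counts in RPF, lowest in S51 bortezomib with a median of 1564487.5, and from 18758668 to 22994713 in total RNA. Levels are given as CPM, the counts of a gene relative to the sequenced total of its library, scaled by TMM within each kind of library. The targeted gene Eif2s1 had 279 to 314 CPM in total RNA in all groups, and its reads do not separate the transgene from the ablated locus. In RPF Eif2s1 was lower in S51 than in S51A under vehicle (log2 difference -0.73, SE 0.17, edgeR adjusted p = 0.00234, and -0.48, adjusted p = 0.00026, without the second S51 vehicle library, the lowest at 81.2 CPM), while the difference under bortezomib did not pass (-0.29, SE 0.16, adjusted p = 0.166). The summed total RNA level of 8 keratinocyte markers lay between 11583 and 12105 CPM in S51 vehicle and between 14033 and 16985 CPM in the other groups. Fibroblast markers (5 genes) summed to 2.69 to 3.85 CPM in S51 and 4.18 to 6.94 CPM in S51A, nearly all from Pdgfra, with Col1a2, Dcn and Lum at 0 in every total RNA library. Immune markers (5 genes) summed to 3.27 to 5.54 CPM in S51 and 5.61 to 7.37 CPM in S51A, nearly all from Cd68, with Cd3e and Lyz2 at 0. Endothelial markers (3 genes) summed to 2.36 to 4.88 CPM in S51 and 1.23 to 2.02 CPM in S51A, mostly from Kdr. Pdgfra, Cd68 and Kdr were above 0 in every library of both kinds, and Lum in 10 of 15 RPF libraries. The part of these marker levels in the results was not tested. In such bulk samples, fewer cells of a type and less RNA per cell cannot be told apart. The second S51 vehicle RPF library stood apart from the other pair for several of the 8 genes, and values without it are given where they matter. The study's text calls its replicates technical and its legends independent, so p-values may measure only technical spread. Numbers in the present sample titles disagree with the column numbers for S51 bortezomib and S51A vehicle, and columns were assigned by the submitters' note to the series and by the study's own list of samples, on which all comparisons rest.

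The enzymes were most abundant in bortezomib-treated S51A cells and least abundant in vehicle-treated S51 cells, at the level of total RNA and of footprints alike. For Hmgcs1, the entry enzyme of the pathway, total RNA was 64.3, 72.1, 78.3 and 79.9 CPM in S51 vehicle and 96.8, 108, 125 and 115 CPM in S51 bortezomib. It was 156, 170, 172 and 178 CPM in S51A vehicle and 209, 233, 239 and 233 CPM in S51A bortezomib. The 4 groups did not overlap, and treated S51 libraries remained below untreated S51A libraries. Idi1, which isomerizes isopentenyl pyrophosphate, had 24.5, 28.5, 25.9 and 29.3 CPM in S51 vehicle and 42.2, 42.4, 50.3 and 53.2 CPM in S51 bortezomib. Its S51A libraries held 39.8, 46.7, 43.8 and 48.5 CPM with vehicle and 63.6, 80.7, 73.7 and 84.7 CPM with bortezomib. Here the ranges of treated S51 and untreated S51A libraries overlapped, and treated S51A libraries lay above all others.

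Fdps, the farnesyl pyrophosphate synthase, had 13.6, 11.0, 10.8 and 14.0 CPM of total RNA in S51 vehicle and 18.0, 21.1, 22.6 and 23.3 CPM in S51 bortezomib. In S51A it had 21.3, 23.3, 21.4 and 21.6 CPM with vehicle and 32.3, 45.1, 37.5 and 45.7 CPM with bortezomib. Fdft1, the squalene synthase, was measured at 8.86, 8.45, 9.50 and 12.0 CPM in S51 vehicle and at 15.9, 19.5, 21.2 and 20.2 CPM in S51 bortezomib. Both genes thus had separate ranges for vehicle and bortezomib in S51. Fdft1 reached 17.7, 25.0, 21.0 and 25.1 CPM in S51A vehicle and 36.2, 44.2, 41.4 and 48.3 CPM in S51A bortezomib. Sqle, the squalene epoxidase and a rate-limiting step of the later pathway, differed mostly by genotype. It had 49.8, 48.0, 49.5 and 53.1 CPM in S51 vehicle, 55.6, 56.3, 60.3 and 61.7 CPM in S51 bortezomib, 85.1, 86.8, 96.4 and 89.5 CPM in S51A vehicle and 94.9, 97.0, 109 and 100 CPM in S51A bortezomib. Its treated and untreated S51A libraries overlapped.

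Insig1 followed the enzymes. Its total RNA was 24.3, 26.9, 28.2 and 30.1 CPM in S51 vehicle and 54.9, 54.7, 65.0 and 59.6 CPM in S51 bortezomib. It was 46.3, 48.7, 52.6 and 49.9 CPM in S51A vehicle and 91.5, 102, 107 and 98.6 CPM in S51A bortezomib. Unlike the enzymes, its treated S51 libraries all lay above the untreated S51A libraries. Srebf2 varied little, with 123, 115, 118 and 110 CPM in S51 vehicle, 145, 143, 140 and 138 CPM in S51 bortezomib, 133, 130, 132 and 126 CPM in S51A vehicle and 140, 129, 146 and 131 CPM in S51A bortezomib. Only its S51 vehicle libraries lay apart from the rest, at the low end.

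Vldlr had the opposite pattern between genotypes. Its total RNA was 24.6, 22.5, 25.7 and 21.5 CPM in S51 vehicle and 23.5, 25.3, 26.1 and 28.4 CPM in S51 bortezomib. In S51A it was 1.55, 2.26, 1.61 and 1.27 CPM with vehicle and 1.09, 1.27, 1.20 and 1.35 CPM with bortezomib, from 22 to 49 reads a library. Every S51 library lay far above every S51A library, and treated and untreated libraries overlapped within each genotype.

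**Figure D1:**
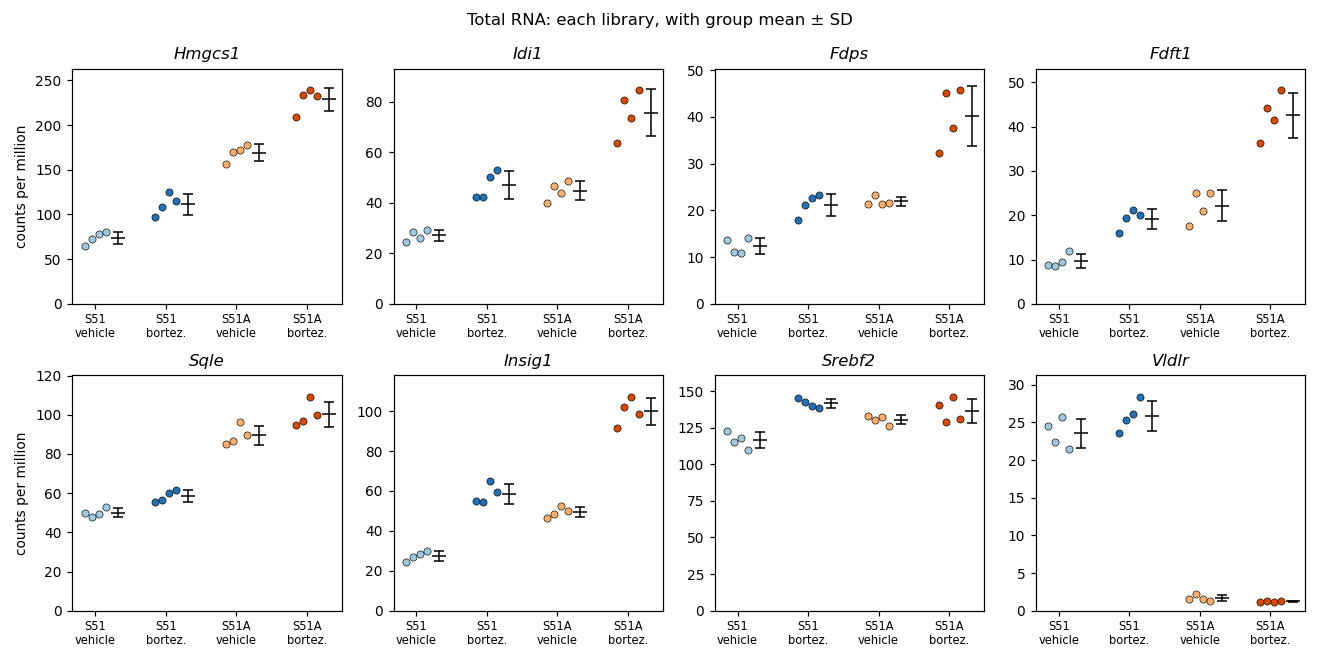
Total RNA level (CPM, linear axis from 0) of each of the 8 genes in its own panel, with 1 point per library in the 4 groups and the group mean ± SD (n = 4). The 5 enzymes and Insig1 have their lowest mean in S51 vehicle and their highest in S51A bortezomib (Hmgcs1 means 73.7, 111, 169 and 229 CPM in the order S51 vehicle, S51 bortezomib, S51A vehicle and S51A bortezomib), Srebf2 is nearly level, and Vldlr is near 0 in S51A.

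Bortezomib raised total RNA of 7 of the 8 genes in S51 at an adjusted p below 0.05 (quasi-likelihood test of edgeR, Benjamini-Hochberg adjusted over all genes, used throughout), where 29.7% of all 11708 genes tested rose. Insig1 rose 2.14-fold (log2 1.10, SE 0.07, adjusted p = 6.90e-13), Fdft1 1.97-fold, Idi1 1.73-fold, Fdps 1.72-fold and Hmgcs1 1.51-fold. Smaller rises were those of Srebf2 (1.22-fold, adjusted p = 1.97e-06) and Sqle (1.17-fold, adjusted p = 0.000719). The log2 change of Vldlr was 0.13 (SE 0.08, adjusted p = 0.138). A change above 2-fold was called for 1 of the 8 genes, Insig1, against 1.96% of all genes called higher. Fdft1 joined it without S51 vehicle library 4 or S51 bortezomib library 1, which gave 2 called genes. At a threshold of 1.5-fold, added after the values were seen, 5 of 8 were called, against 5.7% of all genes. The median log2 change was 0.69 over the 8 genes and -0.01 over all genes. Scaled by library sizes alone, the median of all genes moved to -0.16, no member was above 2-fold, and Sqle no longer passed (log2 change 0.07, adjusted p = 0.258).

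In S51A, 6 of the 8 genes rose at an adjusted p below 0.05, against 27.5% of all genes. Insig1 rose 2.02-fold (log2 1.02, SE 0.06, adjusted p = 8.38e-13), Fdft1 1.92-fold, Fdps 1.83-fold, Idi1 1.69-fold, Hmgcs1 1.35-fold and Sqle 1.12-fold. Srebf2 had a log2 change of 0.06 (SE 0.04, adjusted p = 0.184) and Vldlr of -0.44 (SE 0.20, adjusted p = 0.0597). Above 2-fold stood Insig1 alone, against 1.63% of all genes called higher, and above 1.5-fold 4 genes, against 4.54%. Near the threshold, 0 genes were called without S51A vehicle library 1 or bortezomib library 3, and 2 without vehicle library 2 or 4 or bortezomib library 1. Vldlr passed without S51A vehicle library 4 (log2 change -0.56, adjusted p = 0.0220). With library sizes alone the median of all genes moved to -0.13, Sqle no longer passed (log2 change 0.05, adjusted p = 0.401) and Vldlr did (-0.55, adjusted p = 0.0179).

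Between genotypes under vehicle, 7 of the 8 genes were lower in S51 than in S51A and Vldlr was higher, at an adjusted p below 0.05, where 31.4% of all genes were lower and 32.4% higher. S51A cells had 2.29-fold the Hmgcs1 of S51 cells (log2 difference S51 minus S51A -1.20, SE 0.07, adjusted p = 1.23e-13), 2.28-fold the Fdft1, 1.80-fold the Insig1, 1.78-fold the Sqle, 1.77-fold the Fdps and 1.65-fold the Idi1. Srebf2 was 1.12-fold higher in S51A (adjusted p = 0.00113). Vldlr was 14.1-fold higher in S51 (log2 3.81, SE 0.11, adjusted p = 8.93e-19). Above 2-fold stood Hmgcs1 and Fdft1 on the low side, against 5.47% of all genes, and Vldlr on the high side, against 2.41%. At 1.5-fold 6 genes were lower, against 11.2%, and Vldlr higher, against 6.29%. The median over the 8 genes was -0.83 on the log2 scale.

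Under bortezomib the same 6 genes, the enzymes and Insig1, were lower in S51, and Vldlr was higher. S51A cells had 2.22-fold the Fdft1 of S51 cells (log2 difference -1.15, SE 0.11, adjusted p = 1.37e-09), 2.06-fold the Hmgcs1, 1.89-fold the Fdps, 1.71-fold the Sqle, 1.70-fold the Insig1 and 1.61-fold the Idi1. Srebf2 had a log2 difference of 0.05 (SE 0.04, adjusted p = 0.265). Vldlr was 20.9-fold higher in S51 (log2 4.39, SE 0.12, adjusted p = 1.72e-19). Those 6 lower genes compare with 33.3% of all genes lower at an adjusted p below 0.05, and the 1 higher gene with 32.4%. Above 2-fold there were 2 lower genes, against 5.54%, and 1 higher, against 2.74%, and above 1.5-fold 6 lower, against 11.7%, and 1 higher, against 8.23%. These comparisons share their libraries with the bortezomib comparisons, and their values are not independent of them.

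The responses of the genotypes were compared as the S51 change minus the S51A change. Of the 8 genes, Srebf2 had a response that differed in total RNA (log2 difference 0.22, SE 0.06, adjusted p = 0.00837), where 12.0% of all genes had a difference above 0 that passed. For the enzymes and Insig1 the difference lay between -0.10 (Fdps, normal 95% interval -0.38 to 0.19) and 0.16 (Hmgcs1, -0.02 to 0.34), and none passed in the main fit. With replicate number as a block, the Hmgcs1 difference passed. The intervals of the other genes were -0.20 to 0.27 for Idi1, -0.28 to 0.36 for Fdft1, -0.08 to 0.20 for Sqle and -0.10 to 0.25 for Insig1. Vldlr had a difference of 0.57 (SE 0.21, adjusted p = 0.0534), which passed with DESeq2 (adjusted p = 0.042) and with replicate number as a block. It also passed when any of 3 libraries was left out, S51 vehicle 3, S51 bortezomib 1 and S51A vehicle 4 (0.61 to 0.69, adjusted p = 0.0234 to 0.0401). No member was called above 2-fold by edgeR or by DESeq2, with 2 members at an unadjusted p below 0.05, and 0.478% of all genes called.

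Footprints are the fragments of these mRNAs that ribosomes covered. Hmgcs1 had 71.2, 51.2 and 71.7 RPF CPM in S51 vehicle and 113, 133, 111 and 136 in S51 bortezomib. It had 172, 182, 194 and 185 in S51A vehicle and 241, 270, 299 and 265 in S51A bortezomib, so that no groups overlapped. Fdft1 had 13.1, 15 and 12.7 RPF CPM in S51 vehicle, 21.8, 20.1, 33.7 and 38.6 in S51 bortezomib, 27.1, 43.9, 32.8 and 41.6 in S51A vehicle and 67.7, 75.0, 76.5 and 84.0 in S51A bortezomib. Treated S51 and untreated S51A libraries overlapped for Fdft1 and all other pairs of groups were apart. Sqle had 43.2, 39.6 and 43.8 RPF CPM in S51 vehicle, 45.1, 50.7, 63.5 and 66.7 in S51 bortezomib, 86.0, 88.9, 93.4 and 102 in S51A vehicle and 126, 111, 127 and 109 in S51A bortezomib. Its genotypes lay apart under either treatment.

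Idi1 had 26.9, 6.77 and 29.1 RPF CPM in S51 vehicle, where the second library was far below the others, and 36.4, 36.3, 37.4 and 42.0 in S51 bortezomib. Its S51A libraries had 28.5, 41.0, 27.8 and 42.4 with vehicle and 63.5, 68.7, 57.7 and 66.2 with bortezomib. The vehicle libraries of the genotypes overlapped. Fdps was the enzyme with the fewest footprints, at 10.6, 11.6 and 7.72 RPF CPM in S51 vehicle, 10.2, 14.3, 10.6 and 14.6 in S51 bortezomib, 14.0, 14.8, 13.7 and 11.0 in S51A vehicle and 17.1, 21.4, 18.2 and 30.2 in S51A bortezomib. Only its treated S51A libraries lay above all others. Insig1 had 8.50, 12.6 and 10.5 RPF CPM in S51 vehicle, 35.7, 27.7, 22.7 and 25.2 in S51 bortezomib, 17.3, 21.8, 19.1 and 17.2 in S51A vehicle and 40.3, 45.3, 45.8 and 42.2 in S51A bortezomib. Its 4 groups did not overlap, and their order was that of total RNA.

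Srebf2 footprints stood apart from this pattern. They numbered 177, 250 and 160 RPF CPM in S51 vehicle and 165, 150, 143 and 157 in S51 bortezomib. In S51A they numbered 222, 224, 229 and 198 with vehicle and 210, 239, 222 and 242 with bortezomib. All treated S51 libraries were below all S51A libraries, while the vehicle libraries overlapped only through the second S51 library. Vldlr footprints were counted 34, 14 and 41 times in S51 vehicle (12.0, 6.77 and 10.2 RPF CPM) and 14, 10, 34 and 29 times in S51 bortezomib (10.2, 9.56, 12.9 and 16.2 RPF CPM). In S51A there were 0, 3, 2 and 2 counts with vehicle and 1, 0, 0 and 2 with bortezomib, all at or under the floor of 3 counts per library. The genotypes did not overlap.

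**Figure D2:**
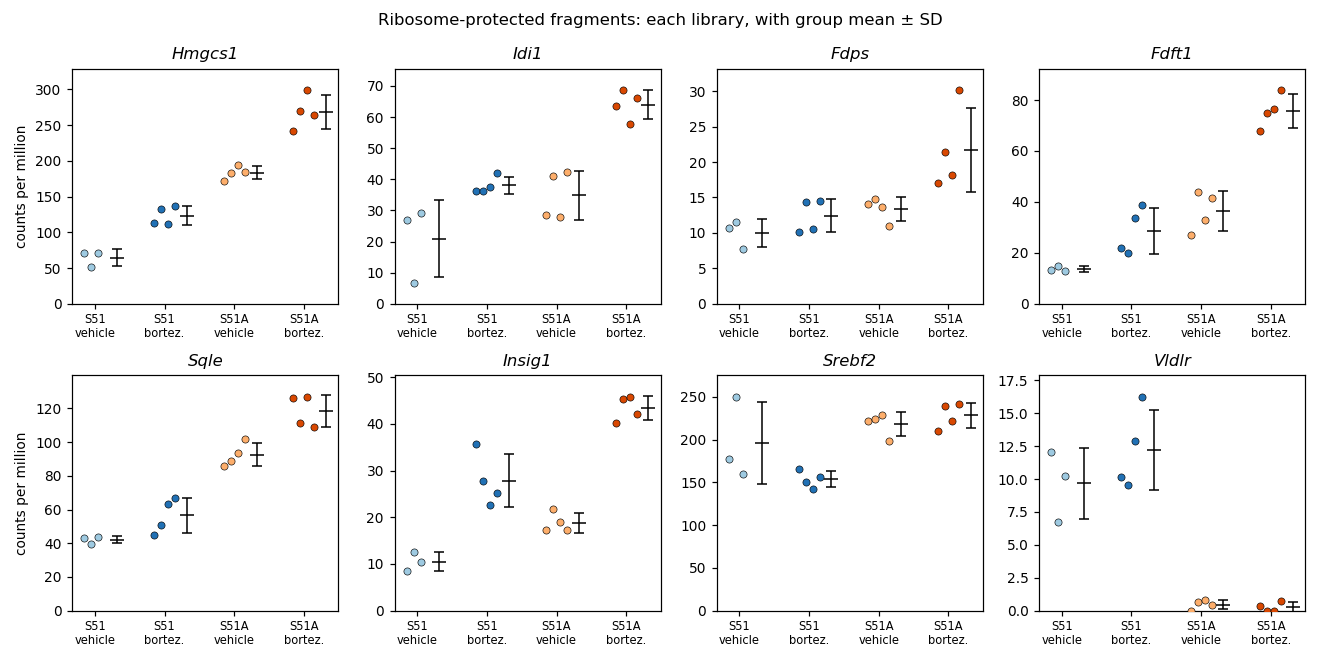
RPF level (CPM, linear axis from 0) of each of the 8 genes in its own panel, with 1 point per library in the 4 groups and the group mean ± SD (n = 3 for S51 vehicle, otherwise 4). Hmgcs1 rises from a mean of 64.7 CPM in S51 vehicle to 269 CPM in S51A bortezomib, Srebf2 is lowest in S51 bortezomib (154 CPM), and the second S51 vehicle library is the high Srebf2 point and the low Idi1 point.

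In S51, bortezomib raised footprints of 4 of the 8 genes above 1.5-fold, where 7.38% of all 9457 genes tested were called higher. They were Insig1 (2.62-fold, log2 1.39, SE 0.19, adjusted p = 1.17e-05), Fdft1 (2.21-fold, adjusted p = 0.000527), Hmgcs1 (1.88-fold, adjusted p = 8.09e-06) and Idi1 (1.72-fold, adjusted p = 0.0298). Sqle rose 1.36-fold (adjusted p = 0.0161). Srebf2 fell, with a log2 change of -0.34 (SE 0.12, adjusted p = 0.0374), and the log2 changes of Fdps (0.33, adjusted p = 0.360) and Vldlr (0.35, adjusted p = 0.376) did not pass. Without the second S51 vehicle library the Srebf2 change was -0.14 (adjusted p = 0.272) and the Idi1 change 0.44 (adjusted p = 0.0431), below 1.5-fold. Idi1 also no longer passed without S51 bortezomib library 3 (adjusted p = 0.0619) or 4 (0.0746), as did Sqle (0.0748 and 0.0681) and Srebf2 (0.110 and 0.0606). Srebf2 did not pass without library 2 of that group either (0.0698). A fit of only the compared groups gave adjusted p = 0.105 for Idi1, 0.0849 for Sqle and 0.133 for Srebf2.

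In S51A, footprints of 4 of the 8 genes rose above 1.5-fold, against 4.19% of all genes. Insig1 rose 2.27-fold (log2 1.19, SE 0.14, adjusted p = 3.16e-06), Fdft1 2.03-fold, Idi1 1.78-fold and Fdps 1.64-fold (adjusted p = 0.0115). Hmgcs1 rose 1.46-fold (adjusted p = 0.000386) and Sqle 1.28-fold (adjusted p = 0.0205). The Srebf2 log2 change was 0.07 (SE 0.11, adjusted p = 0.726). Fdps did not pass without S51A vehicle library 4 (log2 change 0.61, adjusted p = 0.0544) or S51A bortezomib library 4 (0.50, adjusted p = 0.0830). Sqle did not pass when any of 4 S51A libraries was left out, numbers 1 and 2 with vehicle and 1 and 3 with bortezomib (0.32 to 0.33, adjusted p = 0.0622 to 0.0667).

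Footprints of 5 of the 8 genes were called lower in S51 than in S51A under vehicle, against 9.19% of all genes, and Vldlr higher, against 6.62%. S51A cells had 2.80-fold the Hmgcs1 footprints of S51 cells (log2 difference -1.49, SE 0.12, adjusted p = 7.46e-09), 2.77-fold the Fdft1, 2.19-fold the Sqle, 1.83-fold the Insig1 and 1.61-fold the Idi1 (adjusted p = 0.0404). Fdps (-0.45, adjusted p = 0.159) and Srebf2 (-0.16, adjusted p = 0.317) did not pass. Without the second S51 vehicle library the difference was -0.37 for Srebf2 (adjusted p = 0.00118) and -0.37 for Idi1 (adjusted p = 0.0704). The Idi1 difference also failed without S51A vehicle library 2 (-0.61, adjusted p = 0.114) or 4 (-0.58, adjusted p = 0.124) and, narrowly, without 3 treated libraries (-0.69, adjusted p = 0.0505 to 0.0515), number 1 of S51 and numbers 2 and 3 of S51A, and with only the compared groups in the fit (adjusted p = 0.171). Vldlr footprints were at least 9.95-fold higher in S51, computed against 3 counts per S51A library (adjusted p = 2.74e-07).

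Under bortezomib 6 of the 8 genes had called lower footprints in S51, against 10% of all genes, and Vldlr higher, against 7.66%. S51A cells had 2.54-fold the Fdft1 footprints of S51 cells (log2 difference -1.34, SE 0.17, adjusted p = 4.84e-06), 2.18-fold the Hmgcs1, 2.05-fold the Sqle, 1.78-fold the Fdps, 1.68-fold the Idi1 and 1.59-fold the Insig1. Srebf2 was 1.49-fold higher in S51A (log2 difference -0.57, SE 0.11, adjusted p = 0.000587), just below the threshold of fold. Vldlr was at least 9.49-fold higher in S51 (adjusted p = 1.05e-07). For the response difference, no member passed in RPF with edgeR or was called with DESeq2, 2 (Hmgcs1 and Srebf2) had an unadjusted p below 0.05, and 1.86% of all genes were called. Without S51 vehicle library 3 the difference of Srebf2 passed (-0.56, adjusted p = 0.0382). That was 1 of the 15 fits without 1 library, and the other fits did not pass. Over all of them the difference ran from -0.56 to -0.21, with an adjusted p up to 0.382. The median log2 difference of the 8 genes was -0.78 under vehicle and -0.79 under bortezomib.

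Counted per kilobase of the coding sequence, which allows levels of different genes to be set side by side, S51 vehicle footprints were densest on Srebf2 among the 8 genes (58.8 ± 14.3 RPF CPM per kb, SD, n = 3). Hmgcs1 (43.1 ± 7.76), Idi1 (26.4 ± 15.6) and Sqle (25.5 ± 1.36) came next, and Srebf2 and Hmgcs1, or Idi1 and its neighbours, did not differ beyond their spread. Insig1 (14.6 ± 2.83), Fdft1 (11.4 ± 1.03), Fdps (8.30 ± 1.68) and Vldlr (3.78 ± 1.05) were the least dense. In S51A bortezomib, Hmgcs1 had 179 ± 15.9 RPF CPM per kb (n = 4), the highest of the 8 genes.

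Translational efficiency (TE), the change of RPF over that of total RNA, was tested as an interaction in 1 model of all 31 libraries. Srebf2 was the member whose TE passed. Its RPF CPM divided by its total RNA CPM from the same lysate was 1.45, 2.17 and 1.36 in S51 vehicle and 1.14, 1.05, 1.02 and 1.13 in S51 bortezomib. In S51A it was 1.67, 1.72, 1.73 and 1.57 with vehicle and 1.5, 1.85, 1.52 and 1.85 with bortezomib. Treated S51 lysates lay below every other lysate. In S51 the TE of Srebf2 fell with bortezomib (log2 change -0.61, SE 0.12, adjusted p = 0.000581), 1 of 8 members called lower against 4.24% of 9424 genes. It fell by less without the second S51 vehicle RPF library (-0.42, adjusted p = 0.00144), which is under 1.5-fold. In S51A the change was 0.0023 (SE 0.11, normal 95% interval -0.21 to 0.22).

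Under bortezomib, Srebf2 TE was lower in S51 than in S51A (log2 difference -0.63, SE 0.12, adjusted p = 0.000401), against 2.53% of genes called lower, and under vehicle the difference was -0.01 (SE 0.12). Both the S51 change and this difference passed in all 31 fits that left out 1 library, with ranges of -0.77 to -0.42 and -0.67 to -0.58. Both also passed with library sizes alone (-0.46, adjusted p = 0.0103, and -0.52, adjusted p = 0.00500) and with the lysate as a block (-0.58, adjusted p = 0.00854, and -0.62, adjusted p = 0.00306), but both folds with library sizes alone and that of the S51 change with the block were below 1.5. Without S51 bortezomib RPF library 3 the fold of either was below 1.5. The response difference was -0.62 (SE 0.16, adjusted p = 0.0416), against 1.08% of genes called lower. It passed in 12 of 31 fits without 1 library, with an adjusted p between 0.00161 and 0.106, and did not pass with the lysate as a block (-0.58, adjusted p = 0.167) or with library sizes alone (-0.55, adjusted p = 0.0950). The S51 change that enters it was -0.42 without the second S51 vehicle RPF library.

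The other 7 genes had TE differences that did not pass in any comparison. Leaving aside Vldlr, with S51A footprints at the floor, their log2 TE change in S51 ran from -0.44 (Fdps) to 0.30 (Hmgcs1) and in S51A from -0.15 (Fdps) to 0.18 (Sqle). With library sizes alone, which moved the median TE change of all genes in S51 to 0.15, Hmgcs1 (0.45, adjusted p = 0.0253) and Sqle (0.38, adjusted p = 0.0467) passed there. With S51A bortezomib no member passed with edgeR or was called with DESeq2, none had an unadjusted p below 0.05, and 0.987% of all genes were called. Between genotypes under vehicle no member passed either, with 2 (Sqle and Hmgcs1) at an unadjusted p below 0.05, none called by DESeq2 and 0.0849% of all genes called. The targeted gene Eif2s1, not a member, was among the genes called there (log2 TE difference -0.79, SE 0.16, edgeR adjusted p = 0.0201). Its RPF difference was smaller without the second S51 vehicle library, as given above.

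**Figure D3:**
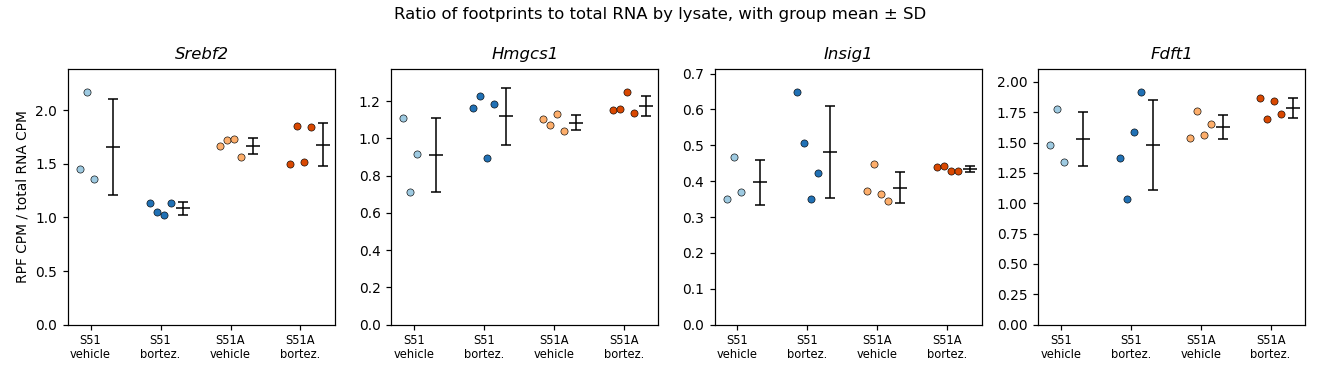
Ratio of RPF CPM to total RNA CPM per lysate (linear axis from 0) for Srebf2, Hmgcs1, Insig1 and Fdft1, with 1 point per lysate in the 4 groups and the group mean ± SD (n = 3 for S51 vehicle, otherwise 4). Srebf2 is lowest in the 4 S51 bortezomib lysates, at 1.02 to 1.14, against 1.36 or more in every other lysate.

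**Figure D4:**
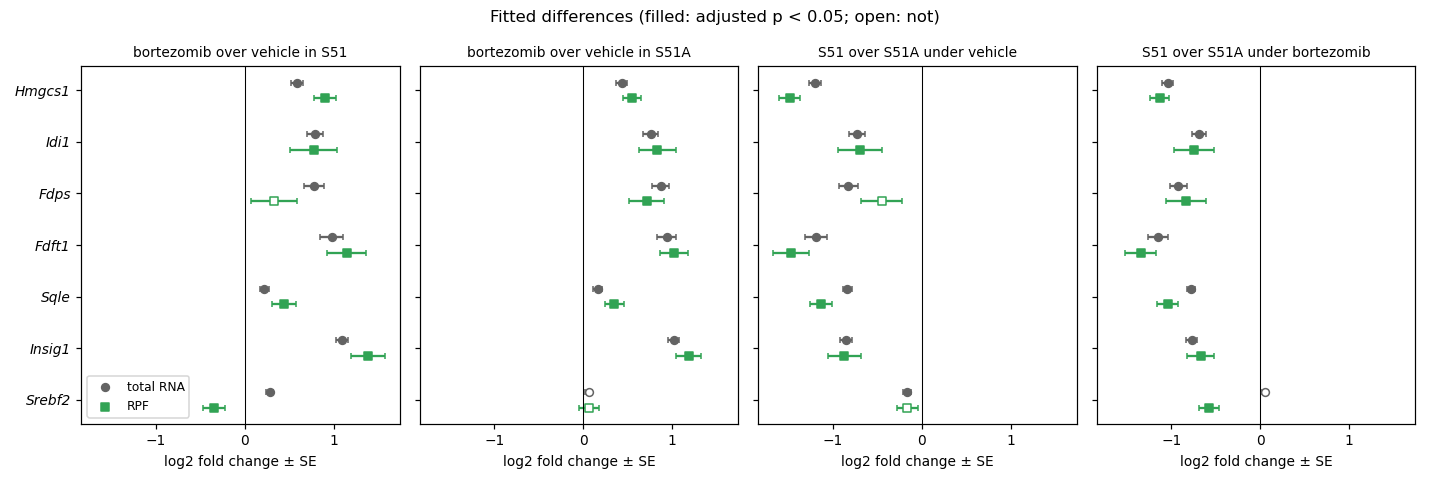
Fitted log2 fold change ± SE (x axis) of 7 of the 8 genes in 4 comparisons (panels, shared x axis), as grey circles for total RNA and green squares for RPF, filled where the adjusted p is below 0.05. Vldlr is left out because its S51A footprints are at the floor, and Srebf2 is the gene whose circle (0.28) and square (-0.34) fall on opposite sides of 0 in S51.

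The wider pathway was read from a list of 20 cholesterol synthesis genes that includes the 5 enzymes. Of the other 15, 7 rose and 2 fell in total RNA with bortezomib in S51 at an adjusted p below 0.05, where 29.7% of all genes rose and 30.2% fell. In S51A 10 rose and 1 fell, against 27.5% and 28.9% of all genes. None of the 15 exceeded 2-fold with edgeR or DESeq2 in either genotype, against 1.96% (S51) and 1.63% (S51A) of all genes called higher. In each genotype 11 of them had an unadjusted p below 0.05. Their median log2 change was 0.24 in S51 and 0.36 in S51A, against -0.01 over all genes in each. Dhcr7, which reduces 7-dehydrocholesterol in the last steps, had the lowest value of the list in S51 (-0.47, SE 0.10, adjusted p = 0.000291). Between genotypes 11 of the 15 were lower in S51 under vehicle and 13 under bortezomib, with 1 higher in each. Over all genes 31.4% and 33.3% were lower and 32.4% higher in each. Msmo1 was the gene beyond 2-fold (log2 difference -1.03 and -1.07), against 5.47% and 5.54% of all genes called lower. The higher gene was Lbr, which encodes the lamin B receptor with sterol reductase activity (0.50, SE 0.04, and 0.57, SE 0.04). Their medians were -0.32 and -0.53.

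**Figure D5:**
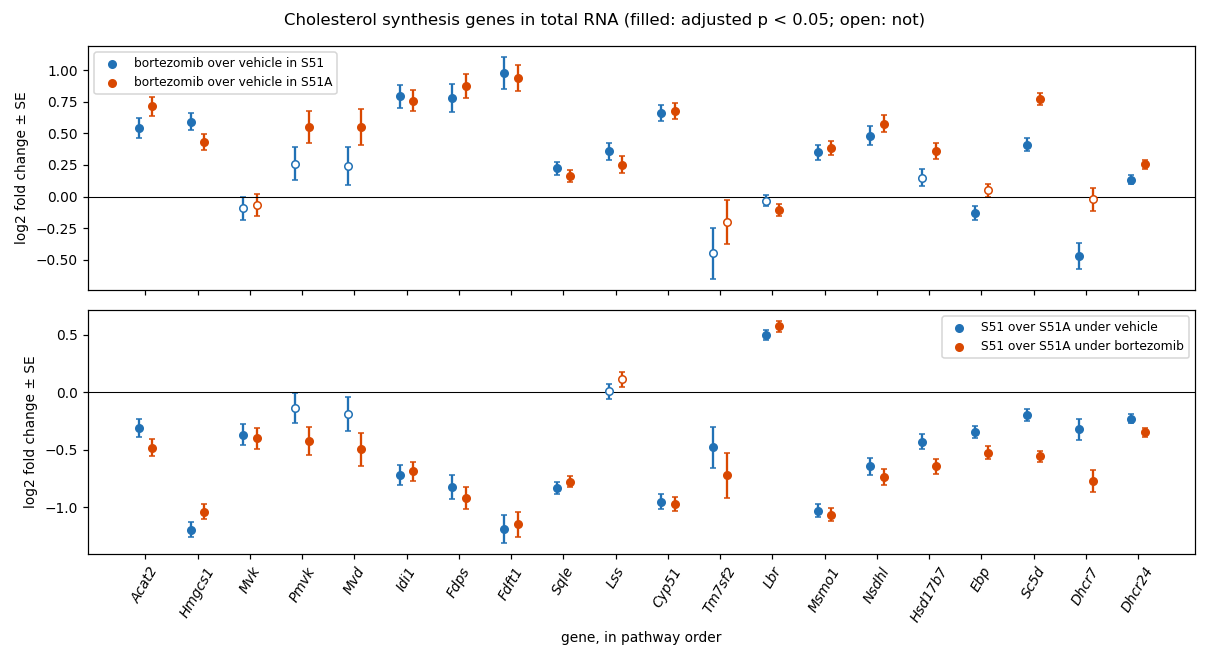
Fitted log2 fold change ± SE in total RNA (y axis) of the 20 cholesterol synthesis genes in pathway order, for bortezomib over vehicle (upper panel, S51 blue, S51A orange) and S51 over S51A (lower panel, vehicle blue, bortezomib orange), filled where the adjusted p is below 0.05. Fdft1 has the highest bortezomib response in either genotype (0.98 and 0.94), and Lbr (0.50 and 0.57) stands above 0 where most of the genes lie below it in the genotype comparisons.

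In footprints, 14 of those 15 genes were tested. With bortezomib, Cyp51 (the lanosterol demethylase), Hsd17b7, Sc5d and Msmo1 were the 4 called higher in S51 and Acat2, Cyp51 and Sc5d the 3 in S51A, against 7.38% and 4.19% of all genes. Between genotypes under vehicle 3 were called lower in S51, namely Msmo1 (log2 difference -1.39), Cyp51 (-1.17) and Nsdhl (-0.92), against 9.19% of all genes. Under bortezomib 6 were called lower, those 3 with Ebp, Acat2 and Dhcr7, against 10% of all genes, and Lbr was the 1 called higher (0.59, adjusted p = 1.84e-05), against 7.66%. No response difference of the 14 passed with edgeR, 3 (Acat2, Ebp and Msmo1) had an unadjusted p below 0.05, and DESeq2 called 1 (Ebp). In TE, Hsd17b7, a ketosteroid reductase of the pathway, was the 1 of 14 called between genotypes under bortezomib (log2 0.64, adjusted p = 0.00569), against 0.552% of all genes called higher.

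Of 14 genes of sterol sensing, among them Srebf2 and Insig1, 13 were tested in total RNA, with 5 up and 6 down in S51 and 5 up and 3 down in S51A under bortezomib. Over all genes 29.7% rose and 30.2% fell in S51 and 27.5% and 28.9% in S51A, so that the shares of this small list do not stand out. Mylip, a ubiquitin ligase that directs lipoprotein receptors such as Vldlr to degradation, was the highest of them in S51 over S51A under vehicle (log2 1.02, SE 0.25, adjusted p = 0.00110). It was the 1 beyond 2-fold, against 2.41% of all genes called higher. Its difference was below 2-fold without S51 vehicle library 4 (0.91) or S51A vehicle library 1 (0.97) or 2 (0.85). Mbtps1, the protease that makes the first cut in SREBP2, was the highest under bortezomib (0.81, SE 0.04, adjusted p = 4.40e-15). Its footprints were higher in S51 too (1.08, SE 0.18, adjusted p = 0.000135 under vehicle and 1.20, SE 0.20, adjusted p = 9.24e-05 under bortezomib). Insig2, the paralog of Insig1, was lower in S51 under bortezomib (-0.86, SE 0.06, adjusted p = 2.23e-12) and fell with bortezomib in S51 (-0.30, adjusted p = 9.76e-05), where Insig1 rose.

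Among 17 lipoprotein receptor genes, 13 were tested in total RNA, and Vldlr was the 1 called higher in S51 under either treatment. Over all genes, 2.41% were called higher above 2-fold under vehicle and 2.74% under bortezomib. Lrp1, an endocytic receptor for remnant lipoproteins and many other ligands, was lower in S51 under vehicle (-1.06, SE 0.07, adjusted p = 1.65e-12). It was the other gene beyond 2-fold, against 5.47% of all genes called lower. Lrp10 was the lowest under bortezomib (-0.80, SE 0.05, adjusted p = 2.61e-12). At an adjusted p below 0.05, 4 of the 13 were higher and 6 lower in S51 under vehicle, and 4 higher and 9 lower under bortezomib. Over all genes 32.4% were higher and 31.4% lower under vehicle, and 32.4% and 33.3% under bortezomib. The share of higher genes in this small list is near that of all genes. Its share of lower genes is above that of all genes, more so under bortezomib. With bortezomib, 6 rose and 3 fell in S51, and 7 rose and 2 fell in S51A, at an adjusted p below 0.05. Over all genes 29.7% rose and 30.2% fell in S51, and 27.5% and 28.9% in S51A. None of the 13 exceeded 2-fold with edgeR or DESeq2, against 1.96% (S51) and 1.63% (S51A) of all genes called higher. In each genotype 10 had an unadjusted p below 0.05. Scarb1, the HDL receptor, had the highest S51A change (0.65, SE 0.05, adjusted p = 2.52e-11). In footprints Lrp5 was the lowest gene between genotypes under bortezomib (-0.99, SE 0.15, adjusted p = 4.24e-05).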

How the data were processed

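RPF and total RNA counts were analysed from S51 and S51A cells with vehicle or bortezomib. The authors deposited whole-number read counts per gene, without normalization, in 1 table for each kind of library. Their methods name FastX for trimming, bowtie2 for alignment to mm10 and plastid for counting, where RPFs near the start and the end of a coding sequence were left out. The sample notes also list featureCounts and DESeq2, and versions were not given in the sources used here. Per the file headers, duplicates were marked, repeats were masked, and unique reads free of rRNA were kept. Unique mapping lowers counts of genes with near-identical copies, and marked duplicates can limit short abundant footprints. Of the Entrez identifiers, 20687 of 20704 (RPF) and 24569 of 24593 (total RNA) matched a gene name.

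Counts were fitted in R 4.3.3 with edgeR 4.0.16 (limma 3.58.1): TMM scaling, filterByExpr by group with a count minimum of 10 and a total of 15, glmQLFit over all groups with a coefficient for each, glmQLFTest and Benjamini-Hochberg adjustment over 9457 RPF genes, 11708 total RNA genes and 9424 genes for TE. Calls required an adjusted p below 0.05 and a fold above 1.5 for RPF and TE or 2 for total RNA. Scripts were tested on simulated data. Replicates were checked for repeated libraries, and none was found (chi-square per gene at least 1.64 in RPF and 2.74 in total RNA). Intervals are normal, at 95%, and the floor of 3 counts covers counting error only.

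The 8 genes and all lists were chosen with earlier results of these data known. Named were the 8 genes, Eif2s1, the highest and lowest gene of each list and the genes most like the enzymes or Vldlr, of which some are left out. Some genes of the lists and names are not reported here. Other genes named (Msmo1, Hsd17b7 and those added for a count) were chosen after their values were seen. The alternatives tried were DESeq2 1.42.0, RLE factors or library sizes alone, other filters, only the groups compared, replicate or lysate as a block, no fold threshold and each library left out in turn.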

Additional observations from a re-analysis of the deposited data

Results flagged for a closer look

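The responses of the genotypes to bortezomib, the S51 change minus the S51A change on the log2 scale, differed by an interaction test (edgeR) for Srebf2 total RNA (0.22, adjusted p = 0.00837) and Srebf2 TE (-0.62, adjusted p = 0.0416). The difference in total RNA passed in every fit that left out 1 of the 16 total RNA libraries, whereas that in TE passed in 12 of 31. The TE difference did not pass with the lysate as a block (-0.58, adjusted p = 0.167) or with library sizes alone (-0.55, adjusted p = 0.0950). The S51 change that enters it was smaller without the second S51 vehicle RPF library.

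The second S51A vehicle library lay apart from the other 3 for Fdps total RNA, at 23.3 CPM, with a gap to the nearest library of 0.858 of the range of the group. Chance marks about 1 in 20 groups this way, and 56 groups were examined.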

How the results depend on the processing

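Outside the fits without 1 library, 1234 of the gene values kept direction and side of the threshold, 7 passed newly, 15 no longer passed and 16 changed sign, all of these last small and not past the threshold in either fit. Those that changed sign with library sizes alone were, in total RNA, Vldlr (-0.020) and Srebf2 (-0.050) for bortezomib in S51 and S51A respectively, Srebf2 (-0.0024) and Osbp (-0.049) between genotypes under bortezomib and the Idi1 response difference (-0.0025). In TE they were Idi1 in S51 (0.10, and 0.0086 with DESeq2), Srebf2 (0.026, with 0.0060 under RLE factors and 0.023 with DESeq2) and Insig1 (0.0017, and 0.023 with the lysate block) between genotypes under vehicle, and Hmgcs1 (0.011) and Idi1 (0.043) under bortezomib. With the lysate block the TE response differences of Fdft1 (-0.095) and Sqle (-0.011) changed sign.

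Library sizes alone moved the median log2 change of all genes in total RNA to -0.16 in S51 and -0.13 in S51A and in TE to 0.15 in S51. The share of calls that were higher moved from 39.4% to 21.8% (total RNA, S51), 39.1% to 26.5% (total RNA, S51A), 19.7% to 61.5% (TE, S51), 17.9% to 47.4% (TE, genotypes under bortezomib) and 16.4% to 37.8% (TE response difference), and with DESeq2 from 37.5% to 56.3% (TE, genotypes under vehicle).

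Counts of members called moved as follows, in the order S51, S51A, vehicle, bortezomib and response difference. In total RNA they were 1, 1, 3, 3 and 0, and with no fold threshold 7, 6, 8, 7 and 1. At 1.5-fold, added after seeing the data, they were 5, 4, 7 and 7 for the first 4. With library sizes alone they were 0 in S51 and 0 in S51A. TE calls of 1 in S51, under bortezomib and for the response difference went to 0 with library sizes alone, and to 0 in S51 and the response difference with the lysate block. For the other cholesterol synthesis genes, total RNA counts with no fold threshold were 9, 11, 12, 14 and 2, and at 1.5-fold 1, 3, 3 and 6, with 2 under bortezomib by library sizes alone. Their RPF count under vehicle was 6 with no fold threshold and their RPF response count 1 with DESeq2. Their TE counts were 1 in S51 with library sizes alone, and 1 in S51 and 2 under bortezomib with no fold threshold.

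Leaving out 1 library at a time, member counts ran from 1 to 2 (total RNA, S51), 0 to 2 (total RNA, S51A), and 0 to 1 for TE in S51, under bortezomib and for the response difference. Insig1 in S51A ended at 0 called without vehicle library 1 or bortezomib library 3 of total RNA, and Fdft1 was near 2-fold. Counts of the other synthesis genes ran in RPF from 2 to 4 (S51), 2 to 5 (S51A), 3 to 5 (vehicle) and 0 to 1 (response difference), in total RNA from 0 to 1 (vehicle) and 1 to 2 (bortezomib), and in TE from 0 to 1 (S51 and bortezomib). Values that changed sign in such fits ranged, in RPF, from -0.37 to 0.0076 (Srebf2, vehicle), -0.034 to 0.23 (Fdft1, response difference) and -0.38 to 0.24 (Idi1, response difference). In total RNA they ranged from -0.015 to 0.021 (Osbp, bortezomib), -0.041 to 0.094 (Idi1, response difference) and -0.031 to 0.16 (Fdft1, response difference). In TE they ranged from -0.35 to 0.25 (Idi1, S51), -0.033 to 0.16 (Fdft1, S51A), -0.047 to 0.044 (Srebf2, S51A), -1.29 to 0.13 (Vldlr, S51A) and -0.034 to 0.15 (Idi1, S51A). Under vehicle the TE ranges were -0.20 to 0.17 (Srebf2), -0.13 to 0.085 (Insig1) and -0.25 to 0.34 (Idi1), and under bortezomib -0.051 to 0.30 (Fdps), -0.039 to 0.21 (Insig1) and -0.12 to 0.017 (Idi1). For the TE response difference they were -0.0054 to 0.25 (Fdft1), -0.028 to 0.13 (Sqle), -0.0081 to 0.25 (Insig1) and -0.40 to 0.21 (Idi1).

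Deviations of same-numbered libraries correlated at -0.14 to 0.25 in RPF (median 0.030, against -0.021 for different numbers). In total RNA they correlated weakly, at 0.0017 to 0.17 (median 0.084, against -0.031), all above 0. Whether replicate numbers pair the samples was not settled, and the main fits left them out. With replicate number as a block (replicate block), the Idi1 footprint change in S51 was 0.72 (adjusted p = 0.0581) and its vehicle difference -0.64 (adjusted p = 0.0806), neither past the threshold, while the total RNA response differences of Hmgcs1 (0.16, adjusted p = 0.0194) and of Vldlr (0.57, adjusted p = 0.0468) passed. The causes of these changes were not tested. The RPF libraries were shallow for Fdps, Insig1 and Vldlr. In S51 they also fell to 21 counts for Fdft1 (bortezomib) and 14 for Idi1 (vehicle). Such counts limit what can be seen of the translation of these genes.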

Other observations

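Genes of fatty acid synthesis and of cholesterol storage and efflux were read from further lists. Me1, which makes NADPH for lipid synthesis, rose with bortezomib in total RNA of both genotypes (log2 change 1.08, SE 0.05, in S51 and 0.83, SE 0.05, in S51A), and Elovl6, a fatty acid elongase, fell in S51 (-0.71, SE 0.07, adjusted p = 1.09e-08 with edgeR). Scd1, the stearoyl-CoA desaturase, was lower in S51 than in S51A (-1.09, SE 0.17, under vehicle and -0.98, SE 0.16, under bortezomib), as was Abcg1, a sterol exporter (-1.09, SE 0.12, and -1.30, SE 0.12). All 8 storage and efflux genes were lower in S51 under vehicle at an adjusted p below 0.05, and 6 of 8 under bortezomib, while 5 of 10 fatty acid genes were lower and 3 higher under vehicle. Over all genes 31.4% were lower and 32.4% higher under vehicle and 33.3% lower under bortezomib.

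Over the 16 total RNA libraries, among 7282 genes, the genes outside the lists most like the mean profile of the 5 enzymes were Stam2 (Pearson r = 0.989), Arl5b (0.987), Bmt2 (0.986), Pikfyve (0.985) and Paip2 (0.983). Among those most like Vldlr were Eif4ebp1 (0.995), Prune2 (0.994), Xpot (0.992) and Usp39 (0.992). In the 15 RPF libraries the same correlations were 0.765 to 0.939 and 0.864 to 0.951. These are descriptions across libraries of 4 groups that share genotype and treatment.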
